A study of Mus musculus with 24 samples.

Results

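Ttr, Clic6, Enpp2, Lmx1a, Msx1 and Msx2, 6 genes of the roof plate and the choroid plexus, were followed in the left and right sides of the mouse embryo head at E8.5, E10.5 and E12.5, the days after coitum. They were chosen by gene symbol, and every probe annotated with one of these symbols was taken. Of the 6 genes, 5 had a probe, which gave 8 probes among the 46643 probes of the array and 5 of its 19406 gene symbols. Enpp2, which encodes autotaxin, had no probe under its symbol and is not analysed here. Ttr and Clic6 had 1 probe each, and Lmx1a, Msx1 and Msx2 had 2 each. The RNA came from 12 (C3H/HeH x 101/H)F1 embryos, 4 at each stage, with no mutation or treatment named in the labels, and each head was cut along the midline so that its left and its right side gave 1 Illumina WG-6 array each, 24 in all. The labels call the tissue brain, whereas the study's methods describe whole heads taken from the body and split, so that skin, mesenchyme, blood and sense organs can be in the sample. Neural genes were present throughout, with Tubb3, Sox2, Otx2 and En2 above the noise limit in 24 arrays and Nes in 22. In such bulk RNA, a change in the number of cells of a type and a change in RNA per cell cannot be told apart. Only pairs with matching Wnt1 and Shh on both sides by qRT-PCR had been hybridised. Wnt1, a roof plate ligand, was accordingly no free readout of the sides. On the arrays it was higher on the right in 6 of 12 embryos, and Shh in 7 of 12. The log2 differences of right minus left ran from −0.52 to 0.27 for Wnt1 and from −0.87 to 1.47 for Shh. Single embryos thus differed between sides on the arrays, most for Shh.

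The roof plate is the dorsal midline of the neural tube, a signalling centre that releases BMP and Wnt ligands to the adjoining neural tissue. In parts of the hindbrain and forebrain it gives rise to the choroid plexus, a secretory epithelium that makes the cerebrospinal fluid. Lmx1a is a LIM homeobox factor needed to form the roof plate, and Msx1 and Msx2 are homeobox targets of BMP signalling, which are expressed in the dorsal midline and also in cranial mesenchyme and neural crest. Ttr encodes transthyretin, a carrier of thyroid hormone and the best-known marker of choroid plexus epithelium, which is also made by visceral endoderm, liver and retinal pigment epithelium. Clic6 belongs to the chloride intracellular channel family.

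The 2 Msx genes are a related pair, and the sequences that lie before their start sites are shown for comparison. Between E8.5 and E10.5 their main probes had log2 changes of opposite sign. That of Msx1 was 0.70 and did not pass (LIMMA adjusted p = 0.111), and that of Msx2 was −0.39 (adjusted p = 0.0110). The other Msx1 probe had the sign of Msx2 (−0.26, adjusted p = 0.0963), so that an opposite course of the 2 genes is not established. They are the 250 bases upstream of each RefSeq gene start in GRCm38.p6, on the strand of the gene, with matches to CCAAT (or its reverse ATTGG) and to the homeodomain core TAATTA in capitals.
Msx1, chr5:37824586-37824835, minus strand: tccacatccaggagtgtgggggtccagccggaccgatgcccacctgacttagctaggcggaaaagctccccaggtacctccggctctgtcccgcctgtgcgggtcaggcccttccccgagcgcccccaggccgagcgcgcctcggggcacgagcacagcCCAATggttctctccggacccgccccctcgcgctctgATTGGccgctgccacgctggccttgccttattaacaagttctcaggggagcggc
Msx2, chr13:53472781-53473030, minus strand: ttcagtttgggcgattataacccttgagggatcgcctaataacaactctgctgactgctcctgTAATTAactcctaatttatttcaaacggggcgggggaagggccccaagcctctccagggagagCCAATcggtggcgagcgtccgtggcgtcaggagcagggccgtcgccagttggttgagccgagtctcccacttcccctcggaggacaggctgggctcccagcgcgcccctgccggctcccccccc
Msx1 held 2 CCAAT matches, which began 91 and 54 bases before the start, and no TAATTA. Msx2 held 1 CCAAT match 124 bases and 1 TAATTA match 187 bases before the start. Over both strands, 33.8% of 32851 such RefSeq windows held CCAAT and 4.84% held TAATTA, and the letters TATAAA, present in 12.4%, were in neither Msx window. These matches describe the letters only. The sequence table had an entry for Lmx1a too, which is not shown because its probes lay in the noise.

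The right sides formed separate sets. At every stage, embryos 1 and 2 had right-side scores of 20.35 to 31.92 on the second principal component (27.4% of the variance over all probes), far from the −47.24 to −28.38 of embryos 3 and 4, with the left sides in the middle at −1.20 to 13.05. The embryo number is the replicate number of the labels, and embryos of different stages with the same number are different animals. The changes of the members are therefore given with and without these right sides. Where it changes a call, the fit with 4 sets of arrays as a block is given too, the left and the right sides of embryos 1 and 2 and of embryos 3 and 4 each being a set. Signals are background-subtracted intensities after quantile normalization, and a level is the mean of the left and right side of an embryo, given as mean ± SD over 4 embryos. A signal was called above the noise limit when it exceeded the size of the 2.5th percentile of its array, which ran from 16.9 to 26. Mean deposited intensities ran from 149 to 323 per array. Fold changes are log2 differences of signal plus a constant of 119.5, which understates changes of dim genes. A probe rose or fell only at a LIMMA adjusted p under 0.05, with Benjamini-Hochberg adjustment over all 46643 probes.

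Ttr was the member with the largest change. It was not above the noise limit in any of the 8 arrays at E8.5 (level −2.24 ± 9.20, n = 4 embryos). At E10.5 it was above it in 5 of 8 arrays, with embryo levels of 60.8, 3.01, 101 and 130 for embryos 1 to 4 (73.7 ± 55.0). At E12.5 all 8 arrays were above it, with levels of 3684, 2458, 892 and 461 (1874 ± 1481). The E12.5 embryos did not overlap with those of either earlier stage, whereas those of E8.5 and E10.5 overlapped. From E10.5 to E12.5 Ttr rose by 2.96 on the log2 scale (SE 0.47, adjusted p = 7.12e-05 from LIMMA). From E8.5 to E12.5 it rose by 3.50 (adjusted p = 2.93e-06), and the signal was at least 48.5-fold higher when the E8.5 arrays are set to their noise limits. Between E8.5 and E10.5 the difference was 0.54 (SE 0.47, adjusted p = 0.651). The exact permutation test of embryo means gave p = 0.0286 for E12.5 against E10.5, the smallest that 4 against 4 embryos allow, and p = 0.0571 for E10.5 against E8.5. Without the right sides of embryos 1 and 2 the later rise was 2.27 (adjusted p = 3.61e-05), and without those of embryos 3 and 4 it was 3.12 (adjusted p = 3.80e-05). The change from E8.5 to E12.5 was then 2.82 (adjusted p = 9.69e-07) and 3.96 (adjusted p = 7.62e-07). On the left sides alone the change from E10.5 to E12.5 was 2.34 (adjusted p = 0.00159) and that from E8.5 to E12.5 was 3.25 (adjusted p = 3.94e-05).

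**Figure D1:**
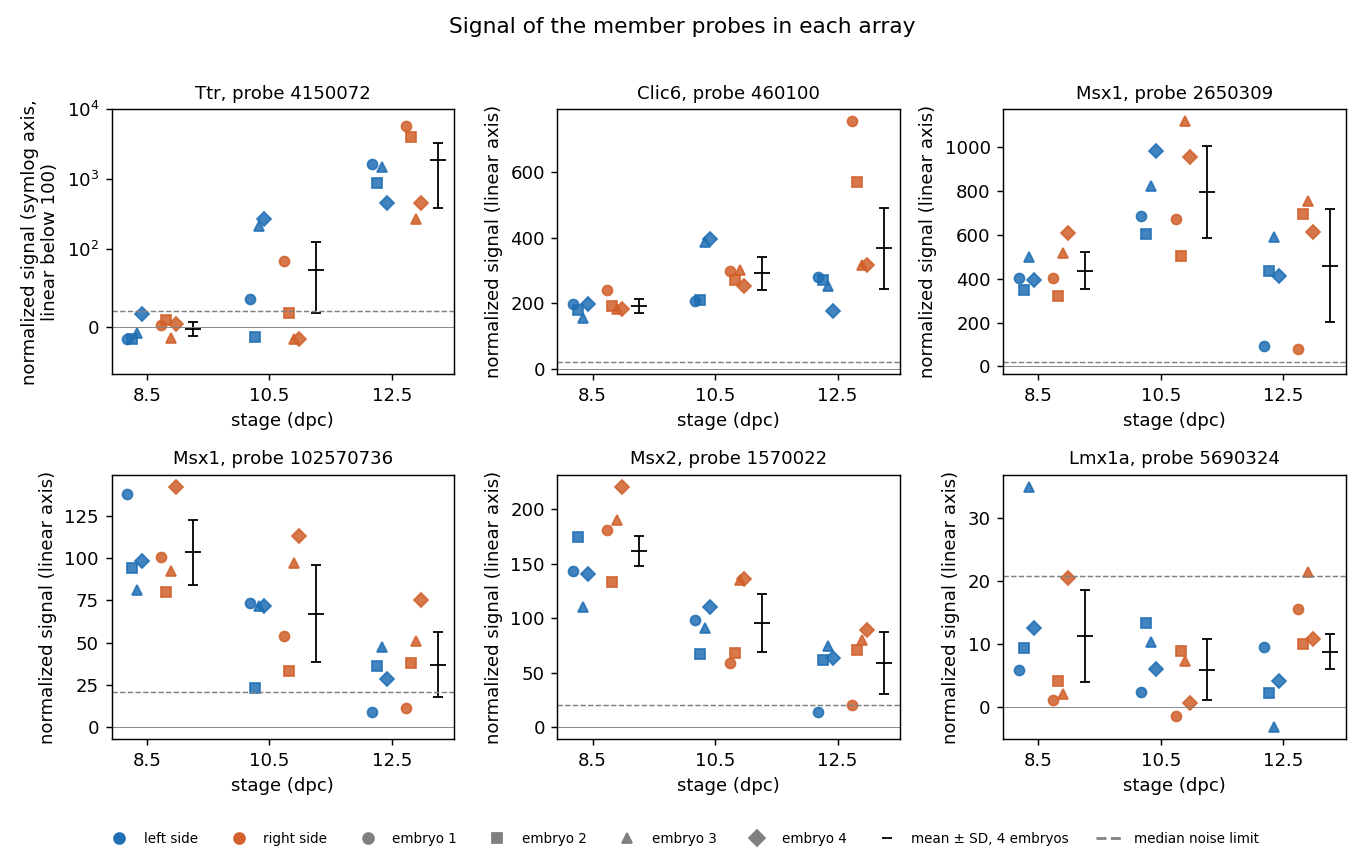
Normalized signal (vertical axis, symlog for Ttr and linear for the others) against stage in dpc (horizontal axis) for 6 member probes, 1 point per array, blue for left and orange for right sides, with a marker shape for each embryo, the mean ± SD of 4 embryos in black and the median noise limit of 20.9 as a dashed line. Ttr is at the noise level at E8.5 and between 275 and 5733 at E12.5, the Msx2 means are 162, 95.8 and 59.4, and the Lmx1a points lie almost entirely under the noise limit.

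Inside a stage, the 2 sides of a head gave very different Ttr signals, and the direction followed the embryo number. At E12.5 the left sides of embryos 1 to 4 were at 1635, 883, 1509 and 462, and the right sides at 5733, 4033, 275 and 459.7. The right side was thus far above the left in embryos 1 and 2, far below it in embryo 3 and level with it in embryo 4. At E10.5 the left sides were at 36.6, −12.2, 218 and 275, and the right sides at 85.04, 18.3, −15.6 and −15.0. Here the 2 highest signals were the left sides of embryos 3 and 4, whose right sides were not above the noise limit. Over the 3 stages, the right side had the higher value in 6 of 6 embryos numbered 1 or 2 and in 0 of 6 numbered 3 or 4, although no E8.5 signal was above the noise limit. The same split was found in 3.89% of all probes, and in 12.2% of the 9159 probes with a mean signal of at least 100 in 1 stage or more. Within embryos 1 and 2 the right was higher than the left by 0.85 (LIMMA adjusted p = 0.0294), where 9.56% of all probes passed. Within embryos 3 and 4 it was lower by 0.94 (log2 difference −0.94, adjusted p = 0.0364), where 18.3% of all probes passed. Over all 12 embryos the difference was −0.07 (SE 0.33, adjusted p = 0.966, exact sign-flip permutation p = 0.949). The set of right sides and the embryo number cannot be told apart here. The 1 probe whose left-right difference changed with stage within embryos 1 and 2 was that of Ttr (adjusted p = 0.0162), 1 probe of 46643 (0.00214%). That test had 2 embryos a stage, and at E8.5 no Ttr signal was above the noise limit. Over all 12 embryos the LIMMA test of side by stage gave Ttr an unadjusted p of 0.387, which did not pass.

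Clic6 was measured in every array and took a shallower course. Its levels were 219, 185, 169 and 191 at E8.5 (191 ± 21.1), 253, 241, 345 and 325 at E10.5 (291 ± 51.4), and 518, 421, 285 and 247 at E12.5 (367 ± 125). The embryos of E8.5 lay below all those of the later stages, while E10.5 and E12.5 overlapped. Clic6 rose from E8.5 to E12.5 by 0.57 (SE 0.16, adjusted p = 0.00943 from LIMMA). The first step, from E8.5 to E10.5, of 0.39 (adjusted p = 0.147), and the second, from E10.5 to E12.5, of 0.18 (adjusted p = 0.667), did not pass the test. Without the right sides of embryos 1 and 2 the first step passed (0.41, adjusted p = 0.0151) and the second was −0.068 (adjusted p = 0.838), and without those of embryos 3 and 4 neither passed (0.41, adjusted p = 0.184, and 0.15, adjusted p = 0.805). The rise from E8.5 to E12.5 was 0.34 (adjusted p = 0.0285) without the right sides of embryos 1 and 2 and 0.56 (adjusted p = 0.0344) without those of embryos 3 and 4. On the left sides alone it was 0.26 and did not pass (adjusted p = 0.307), and the step from E10.5 to E12.5 then had the opposite sign (−0.17). With the arrays scaled by their medians, the rise of 0.65 did not pass either (adjusted p = 0.0613).

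The right side of embryos 1 and 2 was also the high one for Clic6. At E12.5 the left sides of embryos 1 to 4 were at 280.3, 269.9, 254 and 176 and the right sides at 756, 571, 315 and 317. All 4 right sides were above their left sides at this stage, and above every left side of the stage. At E10.5 the left sides were at 207, 210.3, 386 and 396 and the right sides at 300.1, 272, 303 and 254, so that the right was higher in embryos 1 and 2 and lower in 3 and 4. Over all stages the right was higher in 9 of 12 embryos, in 6 of 6 numbered 1 or 2 and in 3 of 6 numbered 3 or 4. The mean difference of 0.24 (SE 0.11) did not pass (LIMMA adjusted p = 0.565, exact sign-flip permutation p = 0.0815). Within embryos 1 and 2, where 9.56% of all probes passed, it was 0.47 (adjusted p = 0.0243). Within embryos 3 and 4, where 18.3% passed, it was 0.02 (adjusted p = 0.933).

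Lmx1a was not detectable at these signals. Its brighter probe was at 11.3 ± 7.32, 5.95 ± 4.88 and 8.79 ± 2.79 at the 3 stages (n = 4 embryos each), with 1 of 24 arrays above the noise limit, the left side of E8.5 embryo 3 at 35.0. Its other probe was above it in 0 arrays.

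Msx1 was brightest at E10.5 by its main probe, annotated to NM_010835. Levels were 403, 335, 508 and 502 for the E8.5 embryos (437 ± 83.3), 679, 555, 970.5 and 970.2 at E10.5 (794 ± 210) and 85.2, 564, 674 and 511 at E12.5 (459 ± 258). The E10.5 embryos lay above all of E8.5 and overlapped with E12.5, and embryo 1 of E12.5 stood far below the other 11. The changes of 0.70 (SE 0.26, adjusted p = 0.111 from LIMMA) and then −0.81 (SE 0.26, adjusted p = 0.0543) did not pass. They passed without the right sides of embryos 1 and 2 (0.75, adjusted p = 0.0173, and −0.80, adjusted p = 0.0101). Without the right sides of embryos 3 and 4 the later change passed (−0.89, adjusted p = 0.0430) and the earlier did not (0.68, adjusted p = 0.141). With the 4 sets of arrays as a block, both changes passed at the same size (adjusted p = 0.0211 and 0.00723). Both also passed with the filter at a signal of 50 (adjusted p = 0.0490 and 0.0229). Neither passed on embryo means (adjusted p = 0.367 and 0.276), with median scaling (0.183 and 0.184) or with signals below 1 raised to 1 (0.304 and 0.108). Leaving out E12.5 embryo 1, the first change passed (0.70, adjusted p = 0.00108), the second shrank to −0.37 (adjusted p = 0.181) and the net difference from E8.5 to E12.5 turned from −0.11 to 0.33 (adjusted p = 0.153). The second change passed without E10.5 embryo 2 (−0.94, adjusted p = 0.0371), E12.5 embryo 2 (−0.93, adjusted p = 0.0405) or E12.5 embryo 3 (−1.02, adjusted p = 0.0163).

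The other Msx1 probe, annotated to the cDNA AK081534, had a log2 change of the opposite sign in the first step. It was at 103 ± 18.9, 67.2 ± 28.6 and 37.0 ± 19.1 at the 3 stages (n = 4 embryos each), with 22 of 24 arrays above the noise limit. It fell from E8.5 to E12.5 by 0.51 (log2 difference −0.51, SE 0.10, adjusted p = 0.000249 from LIMMA), and no array of E12.5 reached the lowest of E8.5. The change was −0.47 (adjusted p = 0.000193) without the right sides of embryos 1 and 2 and −0.59 (adjusted p = 3.79e-05) without those of embryos 3 and 4. On the right sides alone it was −0.47 and did not pass (adjusted p = 0.0941). The first step (−0.26, adjusted p = 0.0963) passed without the right sides of embryos 3 and 4 (−0.34, adjusted p = 0.0130), without E10.5 embryo 4 (−0.33, adjusted p = 0.0436) and with median scaling (−0.29, adjusted p = 0.0295). The second (−0.25, adjusted p = 0.127) passed without E10.5 embryo 2 (−0.35, adjusted p = 0.0105). With the 4 sets of arrays as a block, both steps passed (adjusted p = 0.0146 and 0.0214). On embryo means neither step passed (adjusted p = 0.274 and 0.314), while the change from E8.5 to E12.5 did (adjusted p = 0.00957). The 2 Msx1 probes therefore have to be read as separate measurements.

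Msx2 was highest at E8.5. Its main probe, annotated to NM_013601, was at 163, 154, 151 and 181 in the E8.5 embryos (162 ± 13.5), at 78.5, 67.9, 113 and 124 at E10.5 (95.8 ± 26.8) and at 17.5, 66.4, 77.4 and 76.3 at E12.5 (59.4 ± 28.4). All E8.5 embryos lay above all later ones, and the E12.5 embryo at 17.5 was the lowest. Msx2 fell from E8.5 to E10.5 by 0.39 (log2 difference −0.39, SE 0.10, adjusted p = 0.0110 from LIMMA) and from E8.5 to E12.5 by 0.66 (log2 difference −0.66, SE 0.10, adjusted p = 1.79e-05). The second step of −0.27 did not pass (adjusted p = 0.104), but passed with the 4 sets of arrays as a block (adjusted p = 0.0135). On embryo means the second step did not pass (adjusted p = 0.252). Without the right sides of embryos 1 and 2 the first step was −0.31 (adjusted p = 0.00584) and the second passed (−0.29, adjusted p = 0.01001). Without those of embryos 3 and 4 the first was −0.40 (adjusted p = 0.0109). The change from E8.5 to E12.5 was −0.60 (adjusted p = 2.64e-06) and −0.67 (adjusted p = 4.96e-05) in these 2 settings. The call of the first step was lost without E10.5 embryo 2 (−0.33, adjusted p = 0.0679), on embryo means (adjusted p = 0.0734), on the left (−0.30, adjusted p = 0.107) or the right sides alone (−0.48, adjusted p = 0.196), and with signals below 1 raised to 1 (−0.79, adjusted p = 0.189). The second Msx2 probe, annotated to AK045272, was above the noise limit in 0 arrays.

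Of the 8 member probes, 1 passed from E8.5 to E10.5, downward, where 10.7% of all probes passed, 4.91% upward and 5.8% downward. From E10.5 to E12.5 1 passed, upward, against 10.4% of all probes, 5.92% upward and 4.51% downward. Over the whole interval from E8.5 to E12.5 4 passed, 2 in each direction, against 20.8% of all probes, 9.84% upward and 11% downward. Left against right, 0 of the 8 passed over all stages and 0 in the test of side by stage, as did 0% of all 46643 probes in both. At an unadjusted p under 0.05, LIMMA counted 4141 probes for side and 919 for side by stage. At an adjusted p under 0.05, 4 member probes passed for side within embryos 3 and 4 alone, against 18.3% of all probes, and 2 within embryos 1 and 2, against 9.56%. The median log2 change of the members was −0.016 in the first step and 0.012 in the second, against −0.0042 and −0.0077 over all probes.

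**Figure D2:**
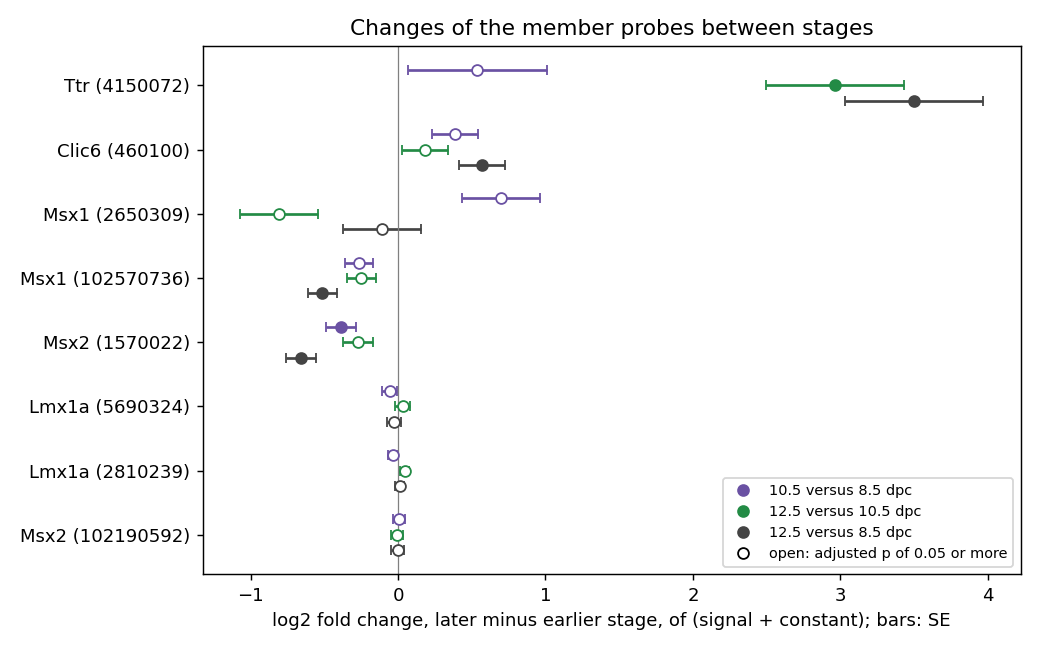
Log2 fold change of signal plus constant (horizontal axis, later minus earlier stage, bars are SE) for the 8 member probes (vertical axis) in the 3 stage comparisons, marked by colour, with filled points for an adjusted p under 0.05 and open points otherwise. Ttr stands at 2.96 and 3.50 in the comparisons with E12.5, Msx2 is lower in each comparison, and the main Msx1 probe changes sign between the steps with open points.

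The side differences of Msx1 and Msx2 were small over all embryos. Over 12 embryos Msx2 was higher on the right in 10 (difference 0.11, LIMMA adjusted p = 0.600), the main Msx1 probe in 7 (0.15, adjusted p = 0.570) and the other Msx1 probe in 9 (0.07, adjusted p = 0.669). In embryos 3 and 4, whose right sides held the lower Ttr signals, the right was higher in 6 of 6 for Msx2 (0.23, adjusted p = 0.00704), in 5 of 6 for the main Msx1 probe (0.28, adjusted p = 0.0171) and in 6 of 6 for the other (0.19, adjusted p = 0.0131). Within these embryos 18.3% of all probes passed for side, against 0% over all embryos. Their right sides form a set of their own, so that side and set cannot be told apart here. In embryos 1 and 2 the right was higher in 4, 2 and 3 of 6. The differences there were −0.03 (adjusted p = 0.863), 0.02 (adjusted p = 0.936) and −0.06 (adjusted p = 0.564). In single arrays of E12.5, the left sides of embryos 1 to 4 were at 14.2, 61.8, 74.7 and 63.6 for Msx2 and the right sides at 20.7, 71.0, 80.1 and 89.0. For the main Msx1 probe the left sides were at 92.2, 434, 592 and 412 and the right sides at 78.2, 695, 756 and 611. Both sides of embryo 1 were thus low for both genes.

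**Figure D3:**
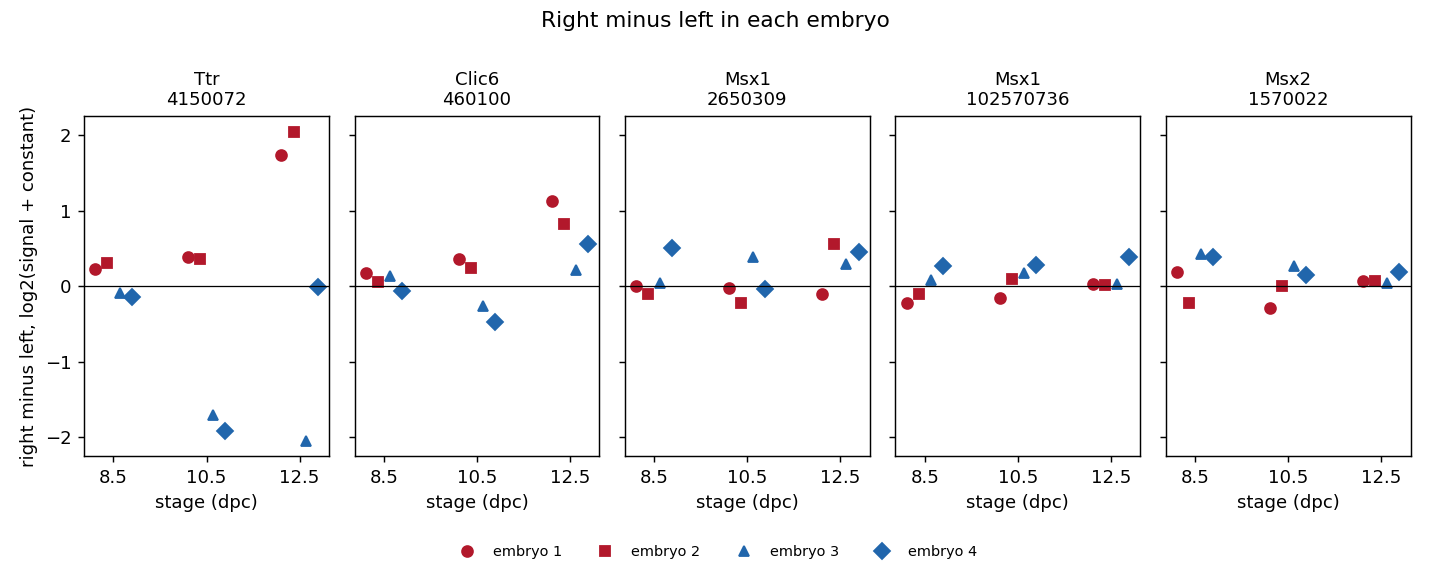
Right minus left difference of log2(signal + constant) (vertical axis) by stage in dpc (horizontal axis) in each of 12 embryos for 5 member probes, red for embryos numbered 1 and 2 and blue for 3 and 4. For Ttr all red points lie above 0 and all blue points below it, from −2.04 to 2.05, and for Msx2 and the second Msx1 probe all blue points lie above 0.

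The E12.5 embryos differed in all 4 measured genes. Embryo 1 had the highest levels of Ttr (3684) and Clic6 (518) and the lowest of Msx1 (85.2) and Msx2 (17.5). Its Ttr level was 7.99 times that of embryo 4, and the highest Msx1 level, in embryo 3, was 7.91 times that of embryo 1. The summed signal of 13 measured genes of cranial mesenchyme and neural crest was lowest in the same embryo, at 955 on the left and 1095 on the right, while the other 6 arrays of the stage ran from 3316 to 4664. Twist1, a transcription factor of that mesenchyme, was at 60.0 and 58.3 in embryo 1 and at 473 to 950.2 in the others. The summed signal of 25 choroid plexus genes, most of it from Igf2, was lowest in embryo 1 too. It was at 7079 on the left and 11384 on the right, against 14973 to 21419 in the others. Igf2 alone gave 4661 and 8490 of the embryo 1 sums. The genes of this list that rose from E10.5 to E12.5 were divided in embryo 1. Calml4 was at 98.9 on its left and 171 on its right, against 52.9 to 146 in the others. Aqp1 was at 41.4 and 202, against 29.4 to 244. Cldn1 was at 15.1 and 73.3, against 26.2 to 100.1. Trpm3 was at −4.08 and 25.025, against 6.4 to 26.8. Col8a1, at 28.7 and 9.85, was below the other arrays of the stage. The part of these tissues in the member values was not tested.

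**Figure D4:**
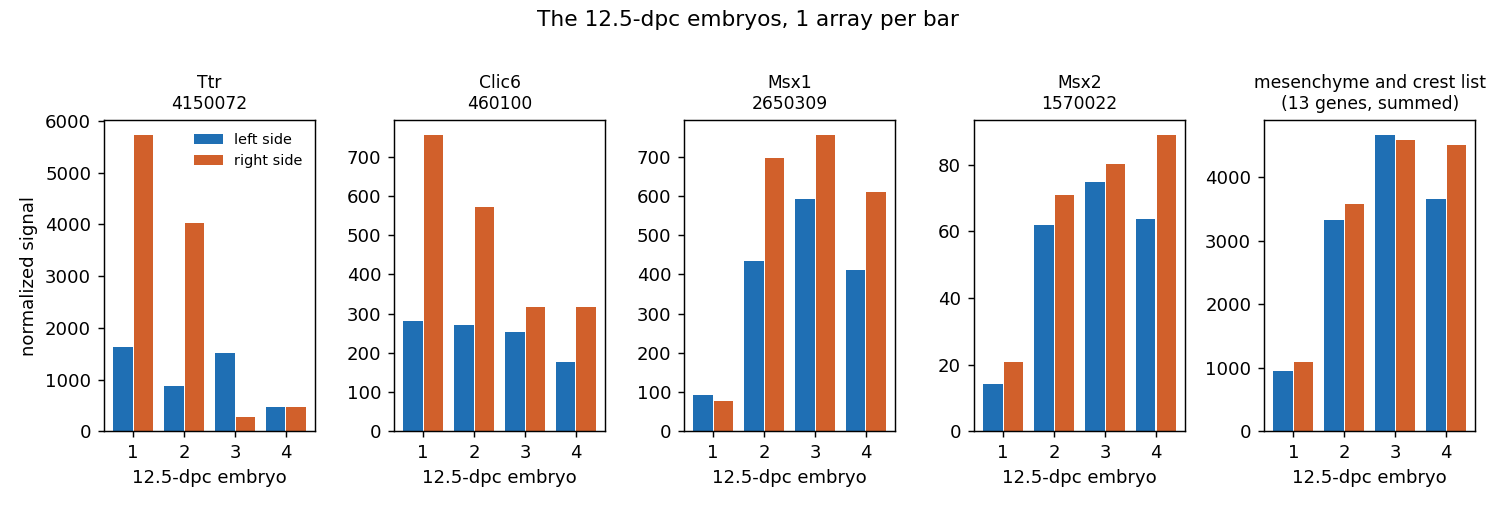
Normalized signal (vertical axes, linear from 0, 1 array per bar, blue left and orange right) of Ttr, Clic6, Msx1 and Msx2 and the summed signal of 13 cranial mesenchyme and neural crest genes in the 4 embryos of E12.5 (horizontal axes). Embryo 1 has the tallest Ttr and Clic6 bars, 5733 and 756 on its right side, and the shortest Msx1, Msx2 and mesenchyme bars.

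Other genes of the choroid plexus were read from a list of 28, of which 25 were measured, each by its brightest probe. From E8.5 to E10.5 1 gene rose and 1 fell, where 15.9% of all genes passed (8.08% upward, 7.77% downward). From E10.5 to E12.5 5 rose and 1 fell, against 16.4% (9.06% upward, 7.29% downward). Calml4, a calmodulin-like protein, was not above the noise limit at E8.5 and E10.5 and rose to 99.6 ± 29.9 at E12.5 (log2 change 0.82, adjusted p = 1.40e-07 from LIMMA), at least 4.64-fold. The water channel Aqp1 rose from 19.2 ± 3.64 to 107 ± 42.5 (0.64, adjusted p = 0.00343), the tight junction protein Cldn1 from 24.6 ± 6.01 to 58.0 ± 19.1 (0.29, adjusted p = 0.0456) and the collagen Col8a1 from 10.8 ± 3.29 to 37.1 ± 14.2 (0.26, adjusted p = 0.00141). Trpm3, a cation channel, passed as well (0.15, adjusted p = 0.0105) but was above the noise limit in only 3 arrays of E12.5. Folr1, the folate receptor of the epithelium, passed in the first step (0.25, adjusted p = 0.0459) with 3 arrays of E10.5 above the noise limit. Car12, a carbonic anhydrase, fell from 580.0 ± 31.1 to 247 ± 83.9 and 118 ± 18.2 (−0.97, adjusted p = 7.97e-06, then −0.61, adjusted p = 0.00187). Kl, Foxj1, Tmem72, Slc4a10 and Cldn2, which also mark the mature plexus, were above the noise limit in 0 arrays. The count of rises in the first step was 0 with median scaling and on the right sides alone, and on the right sides alone 2 genes rose and 0 fell in the second step. The median log2 change of the list was 0.02 and then −0.0078, against −0.0045 and −0.010 over all genes.

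At E12.5, 6 of these 25 genes had the split of Ttr, with the right side higher in embryos 1 and 2 and the left in embryos 3 and 4, against 13.2% of all genes and 18.7% of those with an E12.5 signal of at least 100. Aqp1 was one of them, with left sides at 41.4, 75.7, 125 and 79.4 and right sides at 202, 244, 29.4 and 55.9. Calml4 ran from 98.9, 80.1, 108 and 64.7 on the left to 171, 146, 52.9 and 75.9 on the right, which missed the split only in embryo 4. The others were Folr1, Otx2, Cldn1, Sostdc1 and Slc12a2, a group chosen after its values were seen. The split was not particular to this list. It was held by 4 of 24 BMP pathway, 2 of 8 meninges and 2 of 7 erythroid genes. Roof plate (of 16), retinal pigment epithelium (of 8), mesenchyme and crest (of 13) and otic vesicle (of 7) had 1 such gene each. Of 15 visceral endoderm and liver genes and 8 floor plate genes 0 held it.

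Of 18 listed genes of the roof plate and dorsal midline, 16 were measured. From E8.5 to E10.5 5 of them rose and 1 fell, beside 8.08% of all genes up and 7.77% down. From E10.5 to E12.5 5 fell and 0 rose, beside 9.06% of all genes up and 7.29% down. Rspo3, an enhancer of Wnt signalling, rose from 66.5 ± 17.5 to 627 ± 94.9 (2.003, adjusted p = 2.43e-12) and its relative Rspo1 from under the noise limit to 86.3 ± 26.1 (0.67, adjusted p = 5.18e-06), at least 3.49-fold, before it fell to 44.6 ± 18.0 (−0.33, adjusted p = 0.0123). Msx3, the third Msx gene and restricted to the dorsal neural tube, rose from 402 ± 53.7 to 652 ± 60.6 (0.57, adjusted p = 0.0305) and fell to 364 ± 151 (−0.74, adjusted p = 0.00405). Olig3, a factor of dorsal progenitors, rose from 106 ± 16.1 to 193 ± 30.04 (0.47, adjusted p = 0.00512). Wnt1 fell in both steps, from 139 ± 17.1 to 31.9 ± 5.03 (−0.77, adjusted p = 2.21e-08) and to under the noise limit (−0.25, adjusted p = 0.0163). Wnt8b fell from 667 ± 124 to 325 ± 71.5 in the second step (−0.91, adjusted p = 0.00911), and Wnt3a from 312 ± 71.9 to 174 ± 34.1 (−0.55, adjusted p = 0.00499). Zic5 passed in the first step (0.18, adjusted p = 0.0369) at a level near the noise limit, and Lmx1b, the relative of Lmx1a, was at 37.6 ± 6.62, 36.6 ± 7.25 and 34.5 ± 3.30 with no change that passed. The rise in the first step was counted for 3 genes with median scaling and 1 on the right sides alone, and the fall in the second step for 1 and 0. The medians of the list were 0.12 and −0.05.

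In the BMP pathway, which acts above the Msx genes, 24 of 25 listed genes were measured, with 2 up and 5 down in the first step (8.08% of all genes up, 7.77% down) and 1 up and 2 down in the second (9.06% up, 7.29% down). With median scaling the second step had 2 up and 1 down, and on the left sides alone the counts were 4 up and 5 down, then 2 up and 2 down. None of the ligands passed in either step, but Bmp7 fell over the whole interval from E8.5 to E12.5 (−0.52, LIMMA adjusted p = 0.00127). Bmp4 was at 343 ± 103, 442 ± 113 and 373 ± 208, and Bmp7 at 201 ± 36.1, 161 ± 43.7 and 106 ± 39.8. Among receptors, Bmpr1b rose from under the noise limit to 32.4 ± 9.43 in the first step (0.41, adjusted p = 0.000264). Of the signal transducers Smad1 fell from 79.3 ± 15.9 to 44.5 ± 7.98 (−0.28, adjusted p = 0.000400). The secreted antagonist Fst fell from 532 ± 109 to 163 ± 26.3 (−1.21, adjusted p = 6.31e-07) and the antagonist Grem1 from 51.8 ± 12.3 to 14.1 ± 0.593 (−0.35, adjusted p = 9.32e-06), while Chrd, another antagonist, rose in the second step from 86.8 ± 14.7 to 214 ± 28.2 (0.69, adjusted p = 5.24e-09). The Id genes, direct targets of the pathway like the Msx genes, were divided. Id1 fell from 1626 ± 89.0 to 837 ± 111 (−0.87, adjusted p = 0.000578), Id2 in both steps (−0.96, adjusted p = 4.64e-05, and −0.50, adjusted p = 0.0256) and Id3 in the second (−0.94, adjusted p = 1.69e-06). Id4 rose from 29.0 ± 9.35 to 203 ± 50.4 (1.098, adjusted p = 9.24e-07). The medians of the list were −0.04 and −0.03.

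Markers of other tissues that use the members were measured beside them, and their counts stand beside the same shares of all genes (15.9% in the first step, 16.4% in the second). Of 15 visceral endoderm and liver genes 1 was up and 1 down in the first step and 0 passed in the second (1 with median scaling), in which Ttr rose. Afp, Alb and Rbp4 were above the noise limit in 0 of 24 arrays, whereas Apoa1 and Apoc2 were above it in all 8 arrays of every stage. Mean levels at the 3 stages were 102.7, 79.2 and 58.3 for Apoa1 and 61.3, 47.8 and 45.8 for Apoc2. The summed signal ran from 298 to 859 over the arrays of E8.5, from 226 to 320 at E10.5 and from 224 to 370 at E12.5, and 7 genes were above the noise limit in some array of each stage. Amn was at 142 ± 50.3, 36.0 ± 5.29 and 73.2 ± 13.3, which fell in the first step (−0.72, adjusted p = 1.10e-05), and Trf rose (0.32, adjusted p = 7.75e-05). Of 8 retinal pigment epithelium genes 1 rose in each step. Dct, the dopachrome tautomerase, rose in the first (0.62, adjusted p = 0.00122) and Rlbp1 in the second (0.29, adjusted p = 0.00203), Mitf was at 160.5 ± 19.1, 213 ± 39.8 and 138 ± 42.6, and Rpe65 and Tyr were above the noise limit in 0 arrays. The summed signal ran from 199 to 344, from 186 to 613 and from 271 to 914 at the 3 stages, and 4, 6 and 6 genes were above the noise limit in some array. Its part in the Ttr values was not tested.

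For the Msx genes the relevant list is that of cranial mesenchyme and neural crest, of which 13 were measured. There were 2 up and 1 down in the first step (8.08% of all genes up, 7.77% down), and 2 up and 0 down in the second (9.06% up, 7.29% down). On the left or the right sides alone the first step had 0 up and 1 down. Alx4 rose (1.26, adjusted p = 0.00312), Col3a1 passed near the noise limit (0.15, adjusted p = 0.0449), and Tfap2a went from 1029 ± 50.3 to 523 ± 127 and back to 777 ± 172 (−0.86, adjusted p = 1.74e-05, and 0.48, adjusted p = 0.00859). Col1a1 rose in the second step (1.23, adjusted p = 0.000463), and Foxc1 and Foxc2 were above the noise limit in 0 arrays. The summed signal ran from 2042 to 2804, from 1525 to 3683 and from 955 to 4664 at the 3 stages, with 8, 9 and 10 genes above the noise limit in some array.

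Meninges, otic vesicle, floor plate and blood gave further lists, beside 15.9% of all genes that passed in the first step and 16.4% in the second. Of 8 meninges genes 1 rose and 1 fell in each step, Slc6a13 up (0.31, adjusted p = 0.00368) and Aldh1a2 down (−0.24, adjusted p = 0.00247) in the first, Dcn up (1.88, adjusted p = 1.20e-09) and Crabp2 down (−1.57, adjusted p = 1.97e-06) in the second. Of 7 otic vesicle genes 0 passed in either step by LIMMA (1 in the second step with median scaling and on the left sides alone), and Dlx3 was at 170 ± 19.3, 147 ± 39.2 and 149 ± 109. Of 8 floor plate genes 3 rose in the first step, Corin (1.18, adjusted p = 0.000265), Shh (1.03, adjusted p = 0.000822) and Th (0.23, adjusted p = 0.00351). Th was above the noise limit in 0 arrays of E8.5 and only 2 of E10.5. In the second step Nr4a2 rose (0.61, adjusted p = 0.000441) and Shh (−1.24, adjusted p = 9.32e-05) and Ferd3l (−0.10, adjusted p = 0.0484) fell. Of 7 erythroid genes 4 rose in the first step and 5 fell in the second. Hbb-y (2.74), Hba-a1 (1.90), Hba-x (1.47) and Alas2 (1.37) rose, and Hbb-bh1 (−2.49), Klf1 (−1.31), Hba-x (−1.18), Alas2 (−0.80) and Gata1 (−0.21) fell. Adjusted p-values of these 9 changes ran up to 0.0360. On the right sides alone, 0 retinal pigment epithelium genes passed in either step, 0 meninges genes in the first step, 1 floor plate gene in each step, and 1 and 2 erythroid genes.

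The genes whose embryo levels ran most like those of each member were taken by Pearson's r over the 12 embryo means, among 7946 probes that have 1 gene symbol and a mean signal of at least 100 in 1 stage or more. The points share their stages and arrays, so that r is a description. For Ttr they were Prelp (0.9795), a matrix proteoglycan gene at −13.4, 4.42 and 159 at the 3 stages, Ankmy2 (0.9786) and Ripor2 (0.9766). For Clic6 they were the mitochondrial enzyme gene Idh3a (0.9402), the dynein light chain gene Dynlrb2 (0.9081) and the Polycomb gene Phc1 (0.8797). For Msx1 they were the chemokine gene Cxcl12 (0.9422), Bmp4 (0.9319) and the cartilage collagen gene Col2a1 (0.9267). Bmp4 shared the low value of E12.5 embryo 1, at 59.2 and 70.7 against 352 to 562 in the other arrays of the stage. For Msx2 they were Rras (0.9864), a small GTPase gene, Mocs1 (0.9834) and Rpl31 (0.9767), a ribosomal protein gene at 4682, 3322 and 2795. None is given for Lmx1a, which was in the noise.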

How the data were processed

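Total RNA of each head side was amplified to biotin-labelled cRNA, hybridised to Illumina mouse WG-6 v1.1 BeadChips and read with a BeadArray scanner and, per the submitters' processing notes, GenomeStudio. The authors deposited background-subtracted probe intensities on a linear scale, which were not quantile normalized and went down to −103.5. To every value 119.5 was added, so that the minimum became 16, and the arrays were quantile normalized, as the study states, and put on the log2 scale. The constant was a choice made here. Printed levels have the constant taken off again.

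LIMMA (limma 3.58.1, statmod 1.5.0, R 4.3.3) was fitted to all 46643 probes with fixed terms for stage and side, and duplicateCorrelation (0.0893) was used to treat embryos as random blocks. Side was tested with the embryo as a fixed block, since the labels pair the left and right of an embryo, and side by stage with a moderated F. P-values were adjusted by Benjamini-Hochberg over all probes. Exact two-sided permutation tests used the 70 splits of 4 against 4 embryos (smallest p 0.0286) or 4096 sign patterns (smallest p 0.000488). The fits were also run on simulated data that held changes of stage and of side but no separate sets of right sides. How the fits handle such sets was not tested. Gene symbols came from the platform annotation, in which 32794 probes have 1 symbol, 55 several and 13794 none, and promoter windows from RefSeq.

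Members and companion lists (choroid plexus, roof plate, BMP pathway, visceral endoderm and liver, retinal pigment epithelium, cranial mesenchyme and neural crest, meninges, otic vesicle, midbrain floor plate, erythroid) were chosen with earlier results of these data known. Each listed gene was read by its brightest probe. All member probes were described. Of a list, up to 4 genes with the largest changes that passed were named, with those that passed the opposite way and, for other tissues, the gene with the highest mean signal over all arrays. Listed genes at 0 arrays, Apoa1, Apoc2, ligands of the BMP pathway, Lmx1b and the E12.5 genes of single embryos were named after their values were seen. A further 72 columns of per-sample values could not be matched to samples and were not used, so that the BeadChip was not tested as a batch.

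Alternatives were median scaling, other constants, a floor, a filter at a signal of 50, an intensity trend, embryo means, single sides, the sets of right sides left out or used as a block, the replicate number as a block, and each embryo left out.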

Additional observations from a re-analysis of the deposited data

Results flagged for a closer look

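Among 72 groups of 4 values, 6 held a value far from the other 3 by Dixon's criterion, which chance alone would give in about 1 of 20 groups. The right side of E8.5 embryo 1 had a Clic6 signal of 241 (others 182 to 191). The right side of E8.5 embryo 4 had 20.4 for the brighter Lmx1a probe (others 1.06 to 4.11), under its array's noise limit of 23.2. The other Lmx1a probe had an E12.5 embryo level of −11.7 in embryo 2 (others −5.21 to −4.79), all in the noise. The main Msx1 probe was at 78.2 on the right of E12.5 embryo 1 (others 611 to 756), and the Msx2 level of the same embryo was 17.5 (others 66.4 to 77.4). The second Msx1 probe was at 23 on the left of E10.5 embryo 2 (others 71.6 to 73.6).

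The brighter Lmx1a probe was higher on the left in 4 of 4 embryos at E10.5 and higher on the right in 4 of 4 at E12.5. The LIMMA test of side by stage gave an unadjusted p of 0.0448 and did not pass after adjustment over all probes, and all these signals were under the noise limits, so that no order of the sides is read from them.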

How the results depend on the processing

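Of the 8 member probes, 1 passed from E8.5 to E10.5, which became 0 with signals below 1 raised to 1, on embryo means and on the left or right sides alone, 2 with median scaling, with the filter at a signal of 50 and without the right sides of embryos 3 and 4, and 3 without those of embryos 1 and 2 and with the 4 sets of arrays as a block. Leaving out 1 embryo gave 0 to 2, with 0 without E10.5 embryo 2. From E10.5 to E12.5 the count of 1 became 2 with the filter, with an intensity trend and without the right sides of embryos 3 and 4, 3 without those of embryos 1 and 2, and 4 with the sets as a block, and ran from 1 to 3 with 1 embryo left out. From E8.5 to E12.5 it was 3 or 4 under every alternative tried, and 4 with any 1 embryo left out. For left against right, the count of 0 became 2 within embryos 1 and 2 (9.56% of all probes) and 4 within embryos 3 and 4 (18.3% of all probes), and for side by stage 1 within embryos 1 and 2, with 0 in both when 1 embryo was left out. The direction turned for Clic6 from E10.5 to E12.5 on the left sides alone (−0.17) and without the right sides of embryos 1 and 2 (−0.068). The main Msx1 probe from E8.5 to E12.5 ran from −0.32 to 0.33 over the embryos left out, the upper value without E12.5 embryo 1. The right minus left difference of Ttr was 0.85 within embryos 1 and 2 and ran from −0.25 to 0.11 over the embryos left out, and within embryos 1 and 2 that of the second Msx1 probe was −0.059 and that of Msx2 −0.030. The cause of these changes was not tested beyond the samples each alternative leaves out.

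With the replicate number as a block in place of the embryo, the replicate block counts were 3 from E8.5 to E10.5 and 4 from E10.5 to E12.5. The calls gained were both steps of the main Msx1 probe (adjusted p = 0.0218 and 0.00786) and of the second (0.0279 and 0.0394), and the second step of Msx2 (0.0240). The labels do not say that a number links embryos across stages. Over 10767 probes, deviations from the group means of same-numbered samples had correlations of −0.434 to 0.402 on the left (3 of 12 best with their own number), 0.62 to 0.875 on the right (6 of 12) and 0.329 to 0.791 over embryo means (7 of 12). Samples with different numbers ran from −0.485 to 0.462, from −0.904 to 0.905 and from −0.8 to 0.833. The highest value was each time between different numbers. Medians of same and different numbers were 0.0623 and −0.00947 on the left. They were 0.852 and −0.78 on the right, and 0.685 and −0.533 over embryo means. The left sides do not show a pairing. On the right sides and the embryo means, which contain them, a pairing by number and the sets of right sides cannot be told apart. The 4 embryos a stage and dim signals limit the precision, since Lmx1a and the second Msx2 probe stayed in the noise.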
